A study of Mus musculus with 8 samples.

Results

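The genes described here are 9 epithelial serine proteases and protease inhibitors, Prss22, Prss8, St14, Tmprss2, Tmprss4, Hpn, Spint1, Spint2 and Slpi, each found as 1 row by its symbol among the 31228 genes of the deposited table. They were chosen by name with earlier results on the same libraries known, above all the wide gap of Prss22 levels between epithelium and organoids. Levels in epithelium and organoids are therefore given as a description, with no test. RNA came from C57BL/6 mice in 4 groups. Epithelium of extrahepatic bile ducts and, separately, of pancreatic ducts, digested with collagenase and put directly into Trizol, gave 1 library each. Organoids grown from such duct digests gave 3 libraries for each organ, taken at passage 3 to 4. The organoid medium held B27, N-acetylcysteine, EGF, R-Spondin-1, Noggin, FGF10 and nicotinamide, and Wnt3A conditioned medium and the ROCK inhibitor Y27632 were withdrawn once hollow organoids had formed. The labels name no mutation or transgene. They do not say whether organoids with different numbers came from different animals, so p-values measure only the spread between these cultures, which may be technical.

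Serine proteases of epithelia are made as inactive precursors that are switched on by cleavage. Type II transmembrane serine proteases (matriptase, encoded by St14, hepsin by Hpn, and Tmprss2 and Tmprss4) sit in the plasma membrane with the catalytic domain outside, prostasin (Prss8) is held by a lipid anchor, and Prss22 encodes tryptase epsilon. Matriptase and prostasin act together in epithelial cells, and both are held back by the Kunitz-type inhibitors HAI-1 (Spint1) and HAI-2 (Spint2), whereas the secreted inhibitor Slpi blocks leukocyte proteases such as neutrophil elastase.

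Promoter sequences of 5 of the 9 genes (Spint1, Spint2, Slpi, Hpn and Tmprss2) were matched by symbol in RefSeq, build GRCm38.p6. Those of the 3 inhibitors are shown. Slpi varied most of the 9 genes between organoid cultures (residual SD 1.81 on the log2 scale). Spint1 (0.16) and Spint2 (0.20) were near or below the median of all genes (0.21), and a link between promoter sequence and spread was not tested. Each line holds the 250 bases before the RefSeq start, 5′ to 3′ on the strand of the gene, with capitals marking matches to the KLF-type motif CCNCNCCC on either strand. The windows are chr2:119237110-119237359 (plus strand) for Spint1, chr7:29281978-29282227 (minus strand) for Spint2 and chr2:164356508-164356757 (minus strand) for Slpi. The RefSeq start of Slpi lies inside the wider span that the table and GENCODE M21 give the gene, whose far end comes from a longer transcript.
Spint1: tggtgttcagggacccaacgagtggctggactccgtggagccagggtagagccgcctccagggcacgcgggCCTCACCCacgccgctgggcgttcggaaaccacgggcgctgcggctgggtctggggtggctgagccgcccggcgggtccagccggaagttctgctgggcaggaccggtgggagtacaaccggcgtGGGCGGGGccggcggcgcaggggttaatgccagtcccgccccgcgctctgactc
Spint2: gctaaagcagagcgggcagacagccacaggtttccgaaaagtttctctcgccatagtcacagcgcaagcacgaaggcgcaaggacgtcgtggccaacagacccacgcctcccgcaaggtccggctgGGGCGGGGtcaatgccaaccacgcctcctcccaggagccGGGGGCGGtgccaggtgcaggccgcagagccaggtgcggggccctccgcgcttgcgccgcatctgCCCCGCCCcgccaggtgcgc
Slpi: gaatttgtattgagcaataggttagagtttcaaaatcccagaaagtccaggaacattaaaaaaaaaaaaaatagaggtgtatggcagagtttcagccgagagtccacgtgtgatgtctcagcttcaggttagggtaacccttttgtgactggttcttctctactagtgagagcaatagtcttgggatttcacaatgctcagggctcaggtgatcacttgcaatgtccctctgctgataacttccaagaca
G and C made up 72.8% of the Spint1 window, 69.6% of the Spint2 window and 42% of the Slpi window, against a median of 52.4% over 32851 promoter windows of the same length. CG dinucleotides numbered 26, 24 and 2 in these windows in that order, against a median of 6. The KLF-type motif matched at 2 places in Spint1, at 3 in Spint2 and at none in Slpi, and 45.9% of all windows held a match. None of the 3 windows held the GRHL motif AACCNGTT (1.79% of all windows), the AP-1 motif TGANTCA (6.75%), the STAT motif TTCNNNGAA (7.02%) or the TATA motif TATAAA (12.4%), searched on both strands.

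Levels below are scaled FPKM: reads per kilobase of exon relative to the library's total reads (FPKM), divided by a factor per library that evens out the trimmed mean of log ratios between libraries. The deposited values imply 12876465 to 20828209 reads per library. Bile duct organoid 1 and pancreatic duct organoid 2 correlated with each other (r = 0.970 across 12094 genes) more closely than with the other cultures of their own organ. They lay at the same end of the first principal component of the organoids, which held 56.1% of the variance, and had the lowest levels of the proliferation gene Mki67, 23.4 and 17.99, against 30.3 to 62.4 in the other 4. The epithelial libraries also held RNA of other cells. The 9 acinar markers summed to 20159 for the bile duct and 43589 for the pancreatic duct, and to at most 0.292 in an organoid, with Cpa1, Cpb1, Pnlip and Amy2a1 at 0 reads there. The 8 pan-epithelial markers (Epcam, Cdh1, Krt8, Krt18, Krt19, Cldn7, Cldn4 and Elf3) summed to 2660 and 574 in the epithelia in the same order, to 6133 to 9870 in bile duct organoids and to 4306 to 10712 in pancreatic duct organoids. In such bulk samples fewer cells of a type and less RNA per cell cannot be told apart. Pairs of epithelial values below are given bile duct first, and organoid values in the order of their numbers.

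**Figure D1:**
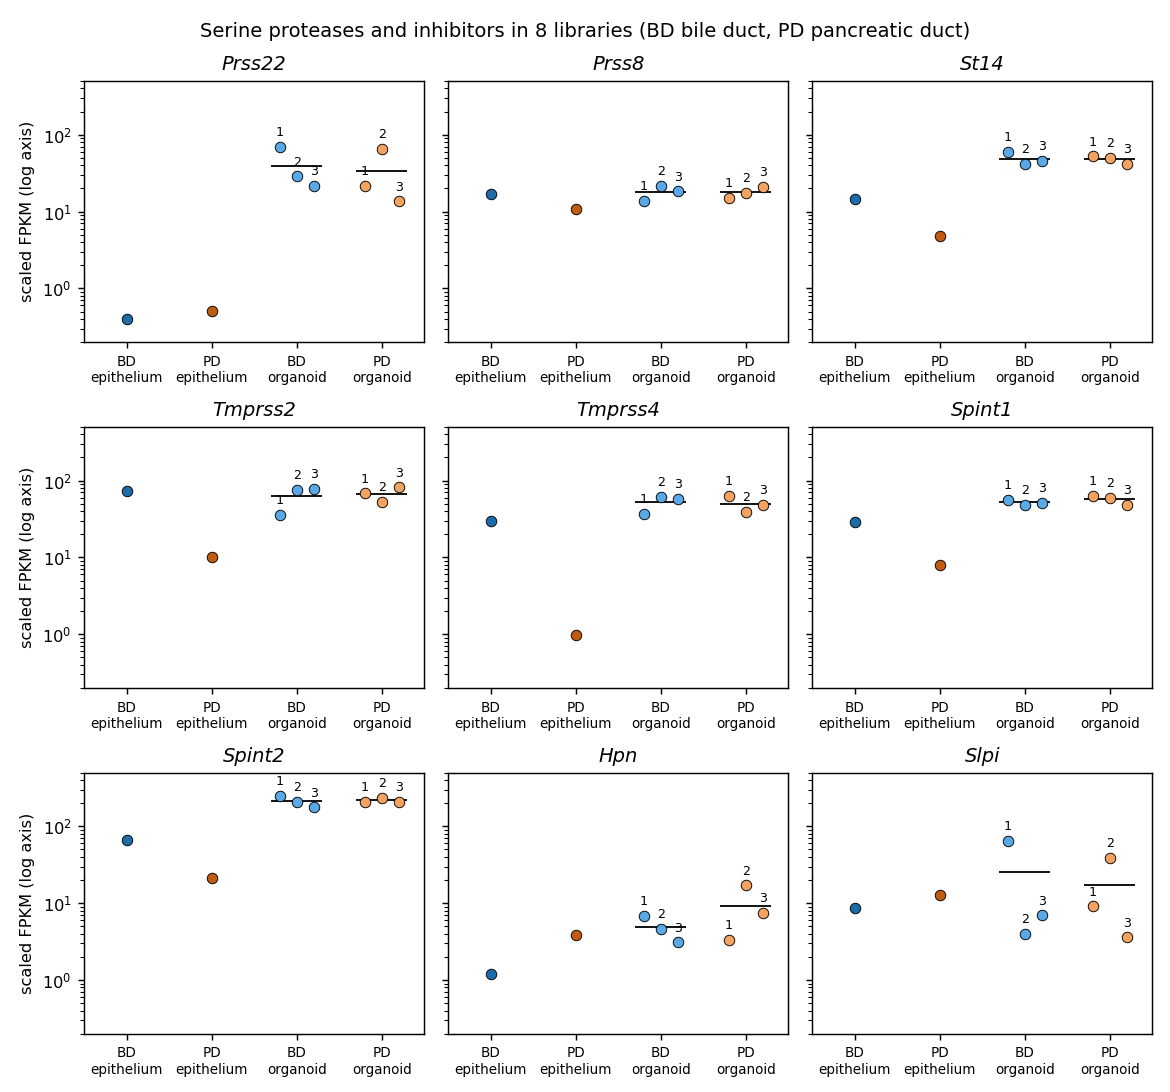
Scaled FPKM (log axis) of each of the 9 genes in the 8 libraries, 1 point per library, with organoid replicate numbers above the points and a line at each organoid mean. Prss22 lies below 1 in both epithelia and above 13 in every organoid, whereas Prss8 stays between 10.7 and 21.5 in every library.

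St14 (ENSMUSG00000031995, chromosome 9, 31089402 to 31131853, minus strand), which encodes matriptase, was higher in every organoid than in either epithelium. The epithelia had 14.7 and 4.76 scaled FPKM. Levels were 59.8, 41.3 and 45.4 in bile duct organoids and 52.3, 49.8 and 42.1 in pancreatic duct organoids, and the organoid groups overlapped. On the scale of log2(scaled FPKM + 1), which is used for all differences below and understates those of low genes, organoids exceeded epithelium by 1.65 ± 0.27 for the bile duct and 3.09 ± 0.16 for the pancreatic duct (SD, n = 3 organoids against 1 epithelial library).

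Tmprss2 (ENSMUSG00000000385, chromosome 16, 97564684 to 97611195, minus strand), a membrane protease known for cleaving viral surface proteins, was already high in bile duct epithelium. The epithelia had 73.2 and 10.2 scaled FPKM. Levels were 35.3, 75.5 and 77.8 in organoids of the bile duct and 68.0, 52.4 and 81.4 in those of the pancreatic duct. Bile duct epithelium lay inside the range of its organoids (log2 difference -0.30 ± 0.63, SD, n = 3), while all pancreatic duct organoids lay above their epithelium (2.58 ± 0.31). Markers of intestinal absorptive cells summed to 381 and 55.0 in the epithelia over 8 genes. Apart from Vil1 (49.7 to 103) these markers were under 1 in every organoid, with Apoa4, Tmprss15 and Sis at 0 reads, and their part in the epithelial level of Tmprss2 was not tested.

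Tmprss4 (ENSMUSG00000032091, chromosome 9, 45172726 to 45204092, minus strand), a related membrane protease, was far higher in bile duct than pancreatic duct epithelium. It had 29.7 scaled FPKM for the bile duct and 0.989 for the pancreatic duct, the latter from 34 reads (exact 95% Poisson interval 0.685 to 1.38, counting error only). Bile duct organoids had 37.2, 61.7 and 57.1, and pancreatic duct organoids 62.9, 38.8 and 48.6. All organoids lay above both epithelia and the organoid groups overlapped, with log2 differences from epithelium of 0.76 ± 0.38 and 4.66 ± 0.34 for bile and pancreatic duct (SD, n = 3 each). Exons of Tmprss4 overlap the antisense gene Gm17099, and since the kit is not stated to mark strand, their reads cannot be told apart. Squamous epithelium markers summed to 60.1 and 0.773 in the epithelia over 7 genes, mostly Sprr1a in the first, to 13.8 to 41.2 in bile duct organoids and to 17.5 to 52.0 in pancreatic duct organoids. Of the 7 markers, 4 were under 1 in every library, Krt5 and Trp63 among them, as were 46.5% of all genes. The other 3 reached 10 in an organoid, and the part of such cells in the level of Tmprss4 was not tested.

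Hpn (ENSMUSG00000001249, chromosome 7, 31098725 to 31115290, minus strand), which encodes hepsin, a protease abundant in hepatocytes, was present at low levels. The epithelia had 1.20 and 3.86 scaled FPKM, from 55 and 210 reads. Among organoids the bile duct cultures had 6.84, 4.63 and 3.09 and the pancreatic duct cultures 3.32, 17.0 and 7.52. All bile duct organoids lay above their epithelium (log2 difference 1.36 ± 0.47, SD, n = 3). Pancreatic duct organoid 1 lay below its epithelium and the other cultures above, so that the difference of 0.85 ± 1.03 is smaller than its spread, with 1.35 without that culture and 0.32 without pancreatic duct organoid 2. Hepatocyte markers summed to 459.9 and 119.7 in the epithelia and to 8.42 to 136 in organoids over 10 genes. Of these, 6 were under 1 in every organoid, as were 57.2% of all genes, with Apoc3, Cyp2e1, Hpd and Ahsg at 0 reads. Only 1 of the 10 reached 10 in an organoid, and the part of these markers in the level of Hpn was not tested.

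Prss8 (ENSMUSG00000030800, chromosome 7, 127925716 to 127930104, minus strand), which encodes prostasin, ran from 10.7 to 21.5 scaled FPKM over all libraries, a narrow range on this scale that widens relative to the pan-epithelial genes, as given below. The epithelia had 17.0 and 10.7 scaled FPKM. Organoid levels were 13.7, 21.5 and 18.3 for the bile duct and 15.2, 17.4 and 21.02 for the pancreatic duct. Bile duct epithelium lay within the range of its organoids (log2 difference 0.04 ± 0.31, SD, n = 3), and pancreatic duct epithelium lay below all of its organoids (0.68 ± 0.22). The end of Prss8 overlaps Kat8 on the other strand, whose level was 6.05 to 8.98 in all libraries, and reads in the overlap cannot be told apart.

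Prss22 (ENSMUSG00000045027, chromosome 17, 23993535 to 23998100, minus strand) showed the widest gap between bile duct organoids and epithelium among the 9 genes. It had 0.404 scaled FPKM in the epithelium of the bile duct, from 6 reads (exact 95% Poisson interval 0.148 to 0.880), and 0.512 in that of the pancreatic duct, from 9 reads (0.234 to 0.972). Bile duct organoids had 68.7, 28.6 and 21.4, and pancreatic duct organoids 21.5, 65.6 and 13.5. Every organoid lay far above both epithelia, while the organoid groups overlapped. The mean ratio of organoid to epithelium was 97.8 for the bile duct (single cultures 52.8 to 169.8) and 65.5 for the pancreatic duct (26.4 to 128). The log2 differences were 4.67 ± 0.85 and 4.21 ± 1.13 (SD, n = 3 each).

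Among the inhibitors, Spint2 (ENSMUSG00000074227, chromosome 7, 29256323 to 29281912, minus strand), encoding HAI-2, had the highest level of the 9 genes in every organoid. The epithelia had 65.4 and 21.4 scaled FPKM. Organoid levels reached 250.4, 205 and 176 for the bile duct and 210.4, 234 and 207 for the pancreatic duct. Every organoid lay above both epithelia, by log2 differences of 1.66 ± 0.25 and 3.28 ± 0.10 from the epithelium of the same organ (SD, n = 3 each).

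Spint1 (ENSMUSG00000027315, chromosome 2, 119237362 to 119249527, plus strand), encoding HAI-1, was likewise lowest in pancreatic duct epithelium and highest in organoids. The epithelia had 28.7 and 7.89 scaled FPKM. In organoids it had 56.0, 48.3 and 51.4 for the bile duct and 63.8, 59.3 and 48.3 for the pancreatic duct, with overlap. The log2 differences from epithelium were 0.83 ± 0.11 and 2.70 ± 0.20 (SD, n = 3 each).

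Slpi (ENSMUSG00000017002, chromosome 2, 164354070 to 164389095, minus strand) followed another order than the Kunitz-type inhibitors. The epithelia had 8.62 and 12.8 scaled FPKM. Bile duct organoids had 64.7, 3.96 and 6.93, and pancreatic duct organoids 9.09, 38.8 and 3.59. In each organ 1 culture lay above the epithelium and the others below, and the log2 differences of 0.51 ± 1.99 and -0.17 ± 1.58 (SD, n = 3 each) are smaller than their spread. With 1 culture left out, the first ran from -0.62 (without bile duct organoid 1) to 1.25 (without bile duct organoid 2). The second ran from -1.02 (without pancreatic duct organoid 2) to 0.54 (without pancreatic duct organoid 3). Leukocyte markers summed to 526 and 482 in the epithelia and to 0.368 to 4.52 in organoids over 7 genes. The 6 neutrophil markers in the table summed to 36.4 and 9.79 in the epithelia, to 1.26 to 9.95 in bile duct organoids and to 7.495 to 18.3 in pancreatic duct organoids, a range that spans the level of their epithelium. Most of the organoid sum was S100a9, at 8.42 in bile duct organoid 1 and 15.9 in pancreatic duct organoid 2, the cultures with the highest Slpi, and 1.16 to 7.52 in the others. The neutrophil receptor gene Csf3r was at 0 reads in every organoid, and the part of these markers in the level of Slpi was not tested.

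Counted over the 9 genes, 4 (Prss22, St14, Spint2 and Hpn) were at least 2-fold higher in bile duct organoids than in their epithelium with all 3 cultures on the same side, as were 12.5% of 15424 genes. None of the 9 was at least 2-fold lower, as were 26.3% of genes. In the pancreatic duct 6 of the 9 (Prss22, St14, Tmprss2, Tmprss4, Spint1 and Spint2) were higher in organoids, as were 15.2% of 15190 genes, and none was lower, as were 25.3% of genes. The median difference over the 9 genes was 0.83 for the bile duct and 2.70 for the pancreatic duct, against -0.09 and -0.08 over all genes. Since results of these contrasts were known when the genes were chosen, the counts describe the list and support nothing.

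Directions changed for several genes when libraries were scaled to the 8 pan-epithelial genes in place of all genes. The factor came from the median of log2(FPKM + 1) over the 8, which did not all move alike. Scaled to all genes, 5 of them were higher and 1 lower in bile duct organoids (all genes 12.5% and 26.3%). In pancreatic duct organoids 7 were higher and 0 lower (all genes 15.2% and 25.3%). Scaled to themselves, 1 was higher and 1 lower for the bile duct, and 0 and 1 for the pancreatic duct. Prss22 remained higher in organoids of both organs, by 3.91 ± 0.36 for the bile duct and 1.99 ± 0.69 for the pancreatic duct (SD, n = 3 each), and Tmprss4 in those of the pancreatic duct, by 2.04 ± 0.68. St14 (0.44 and -0.12), Spint1 (-0.40 and -0.59) and Spint2 (0.41 and -0.11) were under 2-fold in both organs on that scale. Prss8 was at least 2-fold lower in organoids of both organs (-1.14 ± 0.74 and -2.61 ± 0.56). Tmprss2 was lower in those of the bile duct (-1.54 ± 1.12), and Hpn (-2.23 ± 0.79) and Slpi (-3.48 ± 1.12) in those of the pancreatic duct. For the bile duct 1 of 9 genes was thus higher and 2 lower, as were 2.76% and 55.6% of all genes. For the pancreatic duct 2 of 9 were higher and 3 lower, as were 1.04% and 93.3% of all genes.

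The level of a gene as a percentage of the geometric mean of those 8 genes in the same library needs no scaling. St14 stood at 7.33% and 10.4% in the epithelia and at 8.44% to 14.2% in organoids, so that only the pancreatic duct value lay within the organoid range. Prss8 stood at 8.49% and 23.3% in the epithelia and 2.38% to 7.11% in organoids, with no overlap. Prss22 stood at 0.202% and 1.12% in the epithelia and 4.18% to 11.95% in organoids, again with no overlap.

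**Figure D2:**
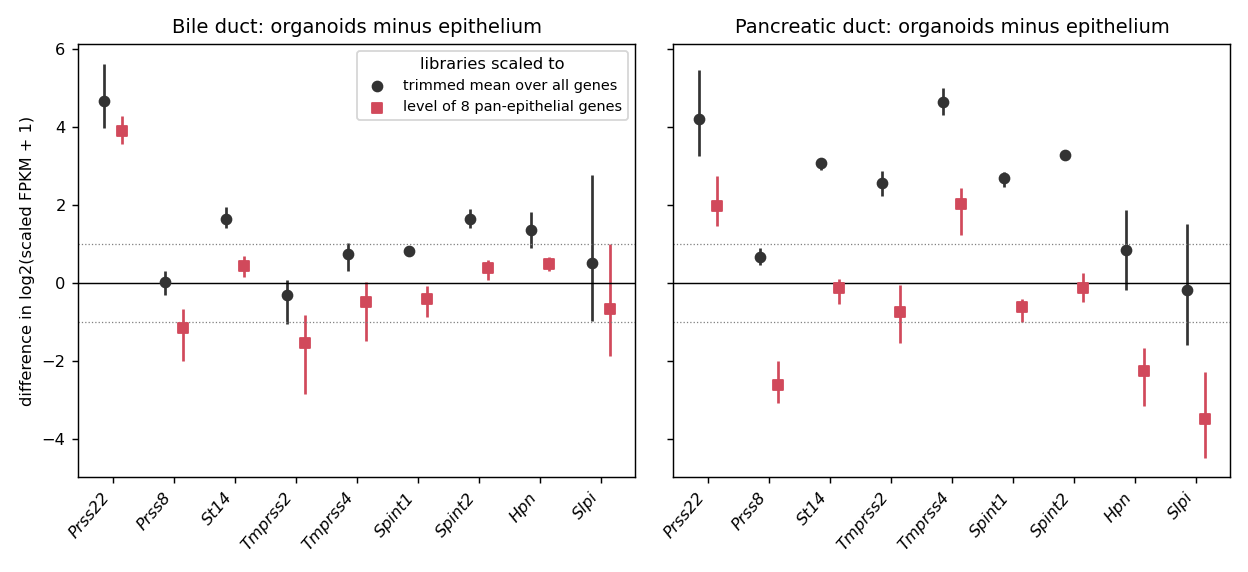
Difference in log2(scaled FPKM + 1) between organoids and the epithelium of the same organ for the 9 genes, with libraries scaled to all genes (circles) or to 8 pan-epithelial genes (squares); symbols are means of 3 organoids, vertical lines span the single organoids, and dotted lines mark 2-fold. Prss22 stays above 1 under both scalings in both organs, while Spint1, Spint2 and St14 in pancreatic duct go from above 2 to below 0.

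Between the epithelia, 5 of the 8 genes with at least 1 scaled FPKM in either library were at least 2-fold higher in the bile duct, as were 9.1% of 15524 genes, and Hpn was lower (-1.14), as were 4.57% of genes. The 5 were Tmprss4 (log2 difference 3.95), Tmprss2 (2.72), Spint1 (1.74), Spint2 (1.57) and St14 (1.44). With 1 library per organ these differences have no replicate check. All 8 pan-epithelial genes were also higher in the bile duct library. Scaled to them, Tmprss4 alone of the 5 stayed at least 2-fold higher (2.66), as did 4.02% of genes, and Prss8 (-1.37), Hpn (-3.23) and Slpi (-2.57) were lower, as were 86.8% of genes.

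The organoid groups are the only ones with replicates on both sides, and none of the 9 genes passed the test between them. With limma, 0 of 12094 genes (0%) passed an adjusted p of 0.05, and 307 had an unadjusted p below 0.05, none of them among the 9; limma without an intensity trend also called 0. Groups did not overlap for 6.76% of all genes and for none of the 9. The log2 difference, bile duct minus pancreatic duct, with its 95% interval was -0.12 (-0.45 to 0.21) for Spint1, -0.05 (-0.43 to 0.34) for Spint2 and 0.02 (-0.40 to 0.44) for St14. For Prss8 it was -0.0034 (-0.48 to 0.47), for Tmprss4 0.06 (-0.54 to 0.66) and for Tmprss2 -0.15 (-0.96 to 0.66). In this fit these 6 intervals leave out a 2-fold difference, that of Tmprss2 narrowly. The Tmprss2 difference was -0.15 with a standard error of 0.37 on deposited FPKM, against 0.33 here. Without bile duct organoid 3 it was -0.34 with a standard error of 0.36, so the limit for Tmprss2 depends on the setting. For Prss22 it was 0.37 (-1.25 to 1.99), for Hpn -0.62 (-1.93 to 0.69) and for Slpi 0.17 (-2.71 to 3.05), and these intervals include a 2-fold difference. Leaving out bile duct organoid 1 gave -0.11 for Prss22 and -0.97 for Slpi, and leaving out pancreatic duct organoid 2 gave 1.00 and 1.03. For Hpn the difference was -0.09 without pancreatic duct organoid 2 and -1.13 without pancreatic duct organoid 1.

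**Figure D3:**
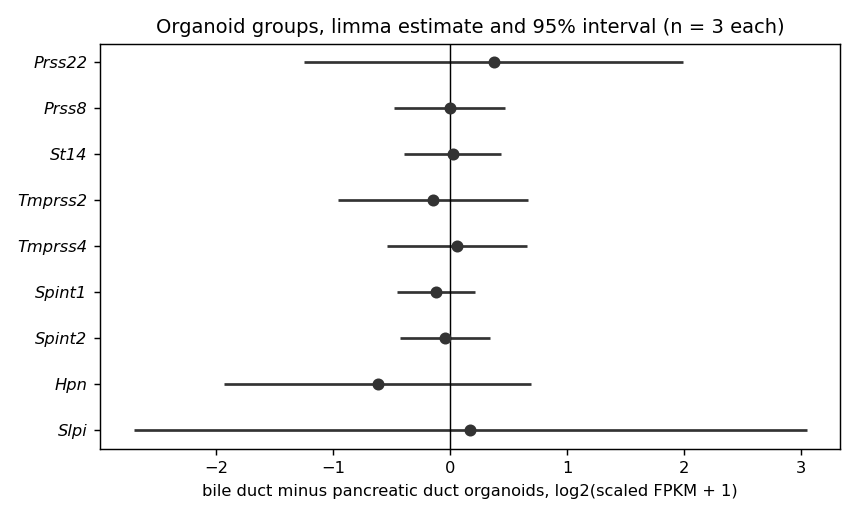
Difference between bile duct and pancreatic duct organoids in log2(scaled FPKM + 1) for the 9 genes, with limma's 95% intervals (n = 3 cultures each). Every interval includes 0, and those of Slpi, Prss22 and Hpn are the widest.

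Single cultures differed more than the organs did for some of the genes. By residual SD within the organoid groups, Slpi ranked 41 of 12094 genes (SD 1.81 on the log2 scale, against a median of 0.21 over all genes), with 18.03-fold between its lowest and highest culture. Prss22 ranked 320 (SD 1.01, 5.07-fold) and Hpn 577 (SD 0.81, 5.50-fold). Spint1 (rank 7887), Spint2 (6547) and St14 (5639) spanned at most 1.45-fold. Bile duct organoid 1 and pancreatic duct organoid 2 held the highest levels of Prss22, Slpi and Spint2 and the lowest of Tmprss2 and Tmprss4 among the 6 cultures. The pan-epithelial genes were also highest in these cultures (geometric mean 574 and 590.2 scaled FPKM, against 296 to 515). As a percentage of them these cultures again held the highest Prss22 and Slpi and the lowest Tmprss2 and Tmprss4, but Spint2 stood at 43.6% and 39.7%, against 40.9% to 70.1% in the others. These 2 are also the cultures with the lowest Mki67, and the part of growth state in these levels was not tested.

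**Figure D4:**
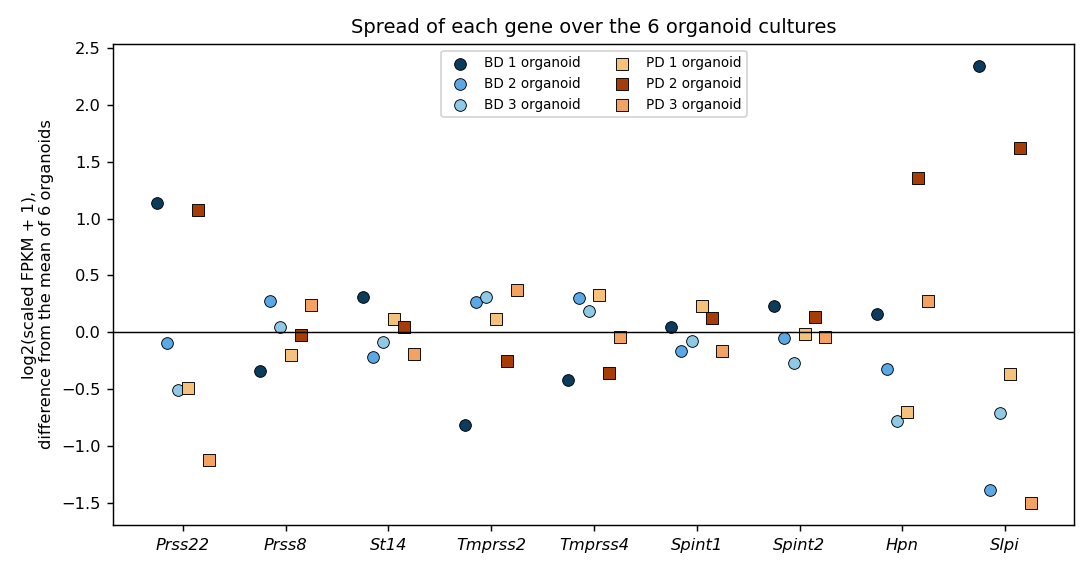
Level of each gene in each of the 6 organoid cultures as the difference in log2(scaled FPKM + 1) from the mean of the cultures (circles bile duct, squares pancreatic duct). Bile duct organoid 1 and pancreatic duct organoid 2 stand above the others for Prss22 and Slpi and below them for Tmprss2 and Tmprss4, and the points of Spint1, Spint2 and St14 lie close together.

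Because FPKM is given per length, levels of different genes can be set side by side within a library. The 6 proteases together had 0.723 to 0.979 times the summed level of Spint1 and Spint2 in organoids, against 1.45 and 1.06 in the epithelia. The ratio of St14 to Spint1 was 0.511 and 0.603 in the epithelia and 0.821 to 1.07 in organoids. That of St14 to Spint2 was 0.224 and 0.223 in the epithelia, within the 0.201 to 0.257 of organoids. Prostasin per matriptase, Prss8 over St14, was higher in both epithelia (1.16 and 2.24) than in any organoid (0.229 to 0.521). Prss22 made up 0.297% and 1.65% of the summed protease level in the epithelia, 31.0% in bile duct organoid 1, 27.2% in pancreatic duct organoid 2 and 6.32% to 12.3% in the other 4 cultures.

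Of 17 type II transmembrane serine proteases in the table, 13 were under 1 scaled FPKM in every organoid, 10 of them in every library, and the others are St14, Tmprss2, Tmprss4 and Hpn. Over all genes 57.2% were under 1 in every organoid and 46.5% in every library. Of this family, the 4 included, 2 of 7 measured genes were higher and 3 lower in bile duct organoids (all genes 12.5% and 26.3%), and 3 of 6 higher and 2 lower in pancreatic duct organoids (all genes 15.2% and 25.3%). With pan-epithelial scaling the counts were 0 higher and 4 lower for the bile duct (all genes 2.76% and 55.6%) and 1 higher and 3 lower for the pancreatic duct (all genes 1.04% and 93.3%). Of 19 tryptase-like or related proteases, Prss22 and Prss8 were the ones to reach 10 scaled FPKM in an organoid. In that list 1 of 10 measured genes were higher and 5 lower in bile duct organoids (all genes 12.5% and 26.3%), and 1 of 8 higher and 2 lower in pancreatic duct organoids (all genes 15.2% and 25.3%). On the pan-epithelial scale they were 1 higher and 8 lower for the bile duct (all genes 2.76% and 55.6%) and 1 higher and 6 lower for the pancreatic duct (all genes 1.04% and 93.3%). The secreted protease gene Prss23 reached 51.9 and 66.9 in the epithelia but at most 3.04 in an organoid, and Htra1 had 37.3 and 87.3 and at most 2.13. Prss32, another gene of that list, had 20.0 and 0.0411 in the epithelia and at most 0.121 in an organoid. Fibroblast markers summed to 1384 and 1596 in the epithelia over 6 genes, smooth muscle markers to 2221 and 3981 over 6 and endothelial markers to 339.9 and 596 over 5. In organoids these sums were at most 2.49, 0.631 and 0.0714, with Lum at 0 reads, and the part of such cells in Prss23, Htra1 and the inhibitor gene Serping1 described below was not tested. All 11 kallikreins in the table were under 1 in every organoid, 7 of them in every library. Klk1, a kallikrein, had 370.4 and 653 in the epithelia and 0 reads in each organoid, beside the acinar markers given above, whose part in it was not tested.

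Among the other inhibitors Wfdc2, a secreted WAP-domain protein, was at 77.0 and 12.5 in the epithelia and 184 to 382 in organoids, where it lay above Spint2 in some cultures and below it in others. Spink1, a trypsin inhibitor of acinar cells, had 72.3 and 174 in the epithelia and at most 0.150 in an organoid. Of the Kunitz, WAP and Kazal inhibitors, Spint1, Spint2 and Slpi included, 2 of 11 measured genes were higher and 7 lower in bile duct organoids (all genes 12.5% and 26.3%), and 4 of 12 higher and 7 lower in pancreatic duct organoids (all genes 15.2% and 25.3%). With pan-epithelial scaling these were 0 higher and 7 lower for the bile duct (all genes 2.76% and 55.6%) and 0 higher and 9 lower for the pancreatic duct (all genes 1.04% and 93.3%). Serpinb5, which encodes maspin, had 14.0 and 1.07 in the epithelia and 28.1 to 65.2 in organoids, whereas the plasma inhibitor gene Serping1 had 291 and 259 and at most 0.620. Of the serpins, 1 of 10 measured genes were higher and 5 lower in bile duct organoids (all genes 12.5% and 26.3%), and 2 of 11 higher and 6 lower in pancreatic duct organoids (all genes 15.2% and 25.3%). The pan-epithelial scale gave 0 higher and 9 lower for the bile duct (all genes 2.76% and 55.6%) and 2 higher and 9 lower for the pancreatic duct (all genes 1.04% and 93.3%).

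Of the substrates and receptors, 7 of 13 measured genes were higher and 5 lower in bile duct organoids (all genes 12.5% and 26.3%), and 9 of 13 higher and 2 lower in pancreatic duct organoids (all genes 15.2% and 25.3%). Pan-epithelial scaling gave 0 higher and 6 lower for the bile duct (all genes 2.76% and 55.6%) and 0 higher and 8 lower for the pancreatic duct (all genes 1.04% and 93.3%). Epcam and Cldn7 belong both to this list and to the 8 genes that set that scale, so their differences on it are partly fixed by the scaling. F2rl1, the receptor PAR2 that several of these proteases cleave, stood at 11.5 and 10.5 in the epithelia, at 70.2, 14.0 and 45.7 in bile duct organoids and 58.3, 92.4 and 49.1 in pancreatic duct organoids. Met, the receptor of hepatocyte growth factor, had 13.6 and 10.9 in the epithelia and 24.1 to 58.2 in organoids, while the ligand gene Hgf was at 0 reads in every organoid. The sodium channel subunit gene Scnn1a had 7.60 and 3.28 in the epithelia and 0.781 to 6.33 in organoids, and Scnn1b and Scnn1g were under 1 in every library. Of the genes of plasminogen activation, 3 of 6 measured genes were higher and 2 lower in bile duct organoids (all genes 12.5% and 26.3%), and 2 of 6 higher and 1 lower in pancreatic duct organoids (all genes 15.2% and 25.3%). On the scale of the pan-epithelial genes there were 0 higher and 3 lower for the bile duct (all genes 2.76% and 55.6%) and 0 higher and 5 lower for the pancreatic duct (all genes 1.04% and 93.3%). The urokinase receptor gene Plaur had 30.5 and 18.01 in the epithelia and 51.0 to 105 in organoids, and urokinase itself, Plau, had 14.4 and 14.0 and 7.99 to 64.3, with overlap. All 6 leukocyte serine proteases in the table were under 1 in every organoid, as were 57.2% of all genes. Among them the granzyme gene Gzma had 32.2 and 7.97 in the epithelia.

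The genes most like each member were ranked by Pearson's r of log2(scaled FPKM + 1) over the 8 libraries, which include the step from epithelium to organoid, among genes that reach 10 scaled FPKM in a library and whose SD over the libraries is at least 0.5 times that of the member. The members themselves and predicted genes were left out, so that the pool differs by member, from 1662 genes for Prss22 to 7022 for Prss8. These values are a description with no test. Nearest to St14 were Dhx32 (r = 0.998), Smim22 (r = 0.995), Tns4 (r = 0.995), and nearest to Spint2 were Dhx32 (r = 0.996), Smim22 (r = 0.995), Mpp6 (r = 0.994), so that Dhx32 and Smim22 led both. Those of Spint1 were Klf5 (r = 0.994), Serinc2 (r = 0.993), Serpinb5 (r = 0.993), and those of Tmprss4 were Tjp3 (r = 0.996), Smpd3 (r = 0.996), Myo5c (r = 0.991). For Prss22 they were Steap2 (r = 0.983), P2ry2 (r = 0.982), Basp1 (r = 0.982), and for Slpi Rnd1 (r = 0.986), Rgs16 (r = 0.966), Tnfaip3 (r = 0.949). Prss8 was followed by Sema4g (r = 0.967), Pex16 (r = 0.960), Atp1b1 (r = 0.950), Tmprss2 by Slc35g1 (r = 0.975), Ugt2b34 (r = 0.973), Pklr (r = 0.961), and Hpn, less closely, by Ptprn (r = 0.910), Efna5 (r = 0.907), Plxnb1 (r = 0.906).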

How the data were processed

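Polyadenylated RNA of 8 libraries was sequenced, and the authors deposited FPKM values in 1 table with a column per library; 0 sample columns were left out. HISAT2 2.1.0, Bowtie2 2.2.3, TopHat2 and HTSeq 0.6.0 are named in the submitters' processing notes, and genome build, filters and strand setting are not given in the sources used here. Gene positions in the table matched GENCODE M21 (GRCm38). The unit was read from the values. FPKM times exon length gave whole reads in all libraries for 91.3% of genes (tolerance 0.05), from which read numbers were taken.

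FPKM were scaled by a trimmed mean of log ratios (30% of ratios and 5% of levels trimmed on each side, computed over genes that reach 1 FPKM anywhere), over 8 libraries for values and comparisons with epithelium and over the 6 organoids for the test. The organoid test was limma 3.58.1 in R 4.3.3 with an intensity trend on log2(scaled FPKM + 1), restricted to genes reaching 1 FPKM in 3 or more organoids, two-sided, Benjamini-Hochberg over all genes, threshold 0.05, and was checked on simulated data. At the observed spread, with 200 of 12094 genes changed, it recovered 63.5% of them, 42% of those changed 2-fold and 85% of those changed 4-fold. The simulated noise was independent between genes, whereas genes of the real cultures vary together (first principal component 56.1% of the variance). Recovery in the real data may therefore differ. Comparisons with the single epithelial libraries have no test. They count genes with at least 1 scaled FPKM on either side that differ by a log2 difference of 1, all organoids on the same side. The members and lists were chosen with earlier results of these data known. Named genes are the members, list genes reaching 10 scaled FPKM in a library with a 2-fold difference, substrates and receptors of the members, and the 3 genes most like each member. Cell type markers, Mki67, Kat8 and Gm17099 are named beside results they bear on, outside that rule, and not every list gene that meets it is named. Alternatives covered scaling, pseudocount, filter, trend, replicate block and leaving out organoids. Tables were handled in pandas 2.3.3 under Python 3.11.15.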

Additional observations from a re-analysis of the deposited data

Results flagged for a closer look

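Spink4 and Hgfac, from the lists of inhibitors and of substrates and receptors, lay on opposite sides of their epithelium in the 2 organs. Spink4, a Kazal-type inhibitor, had 596 and 12.5 scaled FPKM in the epithelia (bile duct first), 44.8, 59.6 and 12.5 in bile duct organoids and 46.6, 50.2 and 89.8 in pancreatic duct organoids, log2 differences of -4.16 and 2.17. Hgfac, which encodes the activator of hepatocyte growth factor, had 18.02 and 2.34 in the epithelia, 4.67, 7.25 and 5.76 in organoids of the bile duct and 3.31, 8.69 and 7.67 in those of the pancreatic duct, differences of -1.48 and 1.09. Each epithelium is 1 library, so the contrast of the organs was not tested. The 8 intestinal secretory markers, a list that includes Spink4, summed to 3331 and 775 in the epithelia and to 81.2 to 208 in organoids. Of these, 3 were under 1 in every organoid, as were 57.2% of all genes, with Lyz1 at 0 reads, while 2, Spink4 included, reached 10 in an organoid. The 6 gastric and gallbladder mucous markers summed to 2594 and 305 in the epithelia and to at most 14.7 in an organoid, with Gkn1 at 0 reads there, and the part of such cells in these levels was not tested. Scaled to the pan-epithelial genes, the pancreatic duct differences were -1.17 and -1.81.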

How the results depend on the processing

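Scaling to the 8 pan-epithelial genes changed most. Members called higher and lower in organoids went from 4 and 0 to 1 and 2 in bile duct and from 6 and 0 to 2 and 3 in pancreatic duct, and between the epithelia from 5 and 1 to 1 and 3. Among called differences it reversed those of pancreatic duct organoids and epithelium for St14 (-0.12), Tmprss2 (-0.74), Spint1 (-0.59) and Spint2 (-0.11), and bile duct minus pancreatic duct epithelium for St14 (-0.44), Spint1 (-0.21) and Spint2 (-0.46). Uncalled differences that changed sign were, in pancreatic duct, Prss8 (0.68 to -2.61) and Hpn (0.85 to -2.23), in bile duct Prss8 (0.04 to -1.14), Tmprss4 (0.76 to -0.47), Spint1 (0.83 to -0.40) and Slpi (0.51 to -0.65), and between the epithelia Prss8 (0.63 to -1.37). Deposited FPKM, upper quartile scaling and a pseudocount of 0.1 gave at most 6 members higher for the bile duct and 7 for the pancreatic duct. Between organoid groups limma called 0 genes in every setting with all 6 cultures, the fit with the replicate block included (correlations of same-numbered deviations -0.10, -0.44 and 0.48), and 0 to 11 with 1 organoid left out, 11 without pancreatic duct organoid 3. No paired calls differed from the unpaired ones. Leaving out single organoids turned signs of uncalled differences between the organoid groups, with ranges of -0.11 to 1.00 for Prss22, -0.14 to 0.16 for Prss8, -0.14 to 0.13 for St14, -0.34 to 0.21 for Tmprss2, -0.10 to 0.27 for Tmprss4, -0.18 to 0.078 for Spint2 and -0.97 to 1.03 for Slpi. Against bile duct epithelium signs turned for Prss8 (-0.095 to 0.21), Tmprss2 (-0.49 to 0.065) and Slpi (-0.62 to 1.25), and against pancreatic duct epithelium for Slpi (-1.02 to 0.54). Between the organoid groups again, other settings also turned signs. Upper quartile scaling gave 0.0050 for Prss8. Without both bile duct organoid 1 and pancreatic duct organoid 2, chosen after seeing the data, Prss8 was 0.15, St14 -0.11, Tmprss2 0.052 and Slpi -0.11, and 1 member, Slpi, was lower in pancreatic duct organoids than in epithelium, as without pancreatic duct organoid 2 alone (range 0 to 1). The causes were not tested. Each epithelium is 1 library, which limits all comparisons with it.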
